A study of Mus musculus with 4 samples.

Results

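The nuclei described here were 661 epithelial nuclei of mouse epididymal type that shared high counts of Lypd8, Lin7a, Ido2, Slc38a5 and Spink5, called set C. All came from 1 single-nucleus RNA library, titled Se and labelled as brown adipose tissue (BAT) of the surgery group on a high-fat diet. They were chosen by measured counts of unique molecular identifiers (UMIs, one per captured RNA molecule). A barcode of that library was kept with at least 300 genes and under 10% of its UMIs from mitochondrially encoded genes. It had to hold at least 2 of the 5 epithelial genes Epcam, Krt8, Krt18, Cdh1 and Esrp1. Its summed UMIs of the 5 set C genes had to be at least 5 and above those of set A (Frmpd4, Kcnh8, Tfap2b, Rnase9, Cntn5), set B (Adam28, Gria2, Lipc) and set D (Defb47, Slc1a1, Defb18, Cldn14, Ctnnd2). The 661 nuclei were 6.65% of the 9942 kept barcodes of the library (exact binomial 95% interval 6.17% to 7.16%, counting error only) and were among 36690 kept barcodes in the series. The same rule assigned 1438 nuclei to set A, 1092 to set B and 615 to set D, and 280 of the 4086 epithelial nuclei to no set.

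The series held 4 libraries from high-fat-fed mice, 1 per combination of tissue label (BAT or beige adipose tissue, BeAT) and operation (sham or surgery). The labels gave neither the strain, age nor sex of the mice, nor how many were pooled, and they did not name the type of surgery for each sample. The molecule was given as nuclear RNA, while the protocol described digested tissue and a check of cell viability before a SeekGene library was made. With 1 library in each group there was no replicate of any kind, no test was run, and each interval below covers counting error only.

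The epididymis is the coiled duct in which sperm leaving the testis mature. Most cells of its lining are principal cells, which secrete proteins into the lumen, among them antimicrobial beta-defensins, lipocalins, protease inhibitors, CRISP proteins and small Ly6-fold proteins. Principal cells of successive segments of the duct secrete different members of these families, and many of the genes depend on steroid hormones and on factors that arrive with the testicular fluid.

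The other 3 libraries held no set C nucleus, which allows a share of up to 0.0288% of kept barcodes in BAT sham, 0.0289% in BeAT sham and 0.0504% in BeAT surgery. Of 47 epithelial barcodes in BAT sham, the same rule put 7 in set A and 4 in set D. It put 1 of BeAT surgery in each of sets A and D. Gpx5, an abundant secreted glutathione peroxidase of the epididymis, was at 269173 UMIs in the BAT surgery library and at 0 in each of the others. Lypd8 was at 17693 UMIs in that library and 0 in the others. The 4 libraries shared 310 barcode sequences, and 9 set C barcodes also occurred in another library. Ucp1, the uncoupling protein that defines brown fat, was at 28 UMIs in the whole BAT surgery library and 3 in BAT sham, so the brown label lacked its defining marker. The library held 60409801 UMIs, and set C nuclei had a median of 7817 UMIs (range 999 to 45098) and 3451 genes, close to set D (7799) and set B (7551.5) and below set A (9387.5). How epididymal nuclei came to be in a library labelled as fat was not tested.

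The 5 genes that chose the set are described first, without a test. Values are UMIs per 1000000 (CPM) of the summed nuclei of a set, and a gene is compared between sets only. Lypd8, which encodes a small Ly6-fold surface protein, was at 1410 CPM in set C, 203 in set A, 57.0 in set B and 221 in set D. Slc38a5, a transporter of glutamine and other neutral amino acids, was at 1515 CPM in set C against 565, 93.8 and 584 in the same order. Spink5, a secreted inhibitor of serine proteases with many Kazal-type domains, was at 1666 CPM against 793, 221 and 535. Lin7a, an adaptor of cell polarity complexes, was at 343 CPM against 57.6, 20.6 and 85.4. Ido2, a relative of the tryptophan-degrading enzyme Ido1, was at 136 CPM against 40.5, 5.43 and 33.4. In each case set B was lowest, and sets A and D lay between it and set C. Set C was 6.95-fold above set A in Lypd8 (95% interval 6.67 to 7.25) and 2.10-fold above it in Spink5 (2.04 to 2.16). These were the widest and narrowest of the 5 gaps to set A.

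Free RNA in droplet libraries gives UMIs in nuclei that do not express a gene, so the 1139 macrophage-like nuclei of the same library serve as a floor. These were nuclei with at least 2 of Adgre1, Mrc1, Csf1r, F13a1 and Cd163 and under 2 epithelial genes, with a median of 3274 UMIs. After each nucleus was thinned to 2000 UMIs, Lypd8 was found in 83.8% of set C nuclei, 20.4% of set A, 5.68% of set B, 22.4% of set D and 11.5% of macrophage-like nuclei. Without thinning the shares were 93.2% in set C and 18.4% in macrophage-like nuclei. Thinned shares of Ido2 were 21.4% in set C, 7.14% in set A, 6.26% in set D and 0.703% in macrophage-like nuclei. In set B, Lypd8 and Slc38a5 were found in no larger a share than in macrophage-like nuclei, so those shares are read as background. Thinning left out 12 set C and 285 macrophage-like nuclei that were shallower.

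**Figure D1:**
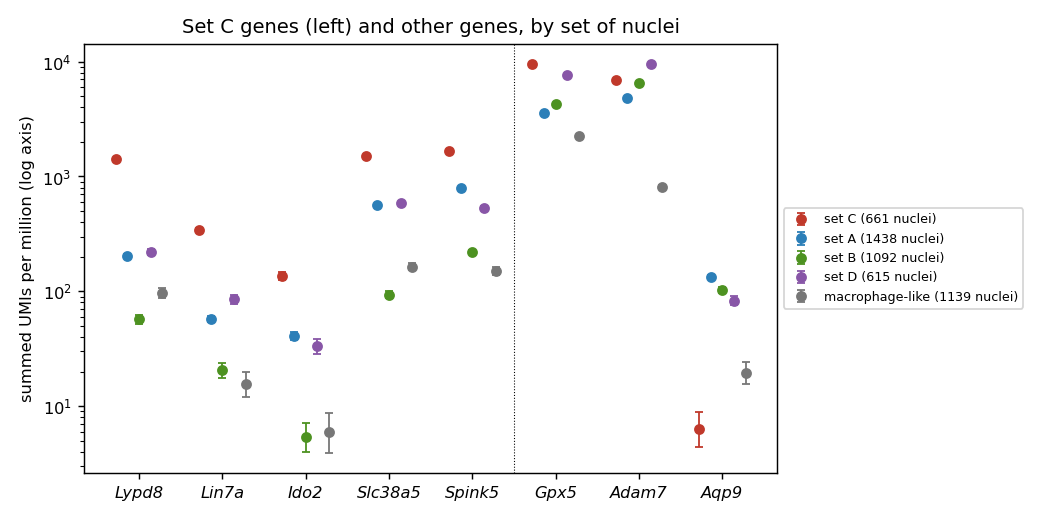
Summed CPM (log axis) of the 5 genes that define set C and of Gpx5, Adam7 and Aqp9, in 5 sets of nuclei of the BAT surgery library; points are sums over nuclei and bars are exact Poisson 95% intervals. Set C is highest in the 5 genes that chose it and in Gpx5, and lowest of all sets in Aqp9 at 6.37 CPM.

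The promoter windows of the set C genes were read to show the sequence around the start of genes that were high together, with Gpx5 and Aqp9 as a gene highest and a gene lowest in set C. Windows of 300 bases, from 250 before to 50 after the start, came from RefSeq (GRCm38.p6) and held 5 of the 7 genes looked up; none is shown for Ido2 and Spink5. Capitals mark TGTTCT or its reverse complement AGAACA, a half-site bound by the glucocorticoid receptor. The windows are Lypd8 at chr11:58378782-58379081 (plus strand), Lin7a at chr10:107271581-107271880 (plus), Slc38a5 at chrX:8271131-8271430 (plus), Gpx5 at chr13:21292637-21292936 (minus) and Aqp9 at chr9:71163240-71163539 (minus).
Lypd8: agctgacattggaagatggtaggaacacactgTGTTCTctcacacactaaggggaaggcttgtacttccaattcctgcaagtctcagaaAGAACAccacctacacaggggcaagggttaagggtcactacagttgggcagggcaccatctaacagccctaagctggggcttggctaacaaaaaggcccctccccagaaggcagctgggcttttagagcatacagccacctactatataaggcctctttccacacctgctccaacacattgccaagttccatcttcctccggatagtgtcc
Lin7a: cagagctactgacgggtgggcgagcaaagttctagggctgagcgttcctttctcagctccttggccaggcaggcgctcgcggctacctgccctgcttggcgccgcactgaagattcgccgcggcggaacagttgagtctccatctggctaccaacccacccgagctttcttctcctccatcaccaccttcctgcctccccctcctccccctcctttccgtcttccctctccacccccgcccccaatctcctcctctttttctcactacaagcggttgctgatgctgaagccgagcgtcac
Slc38a5: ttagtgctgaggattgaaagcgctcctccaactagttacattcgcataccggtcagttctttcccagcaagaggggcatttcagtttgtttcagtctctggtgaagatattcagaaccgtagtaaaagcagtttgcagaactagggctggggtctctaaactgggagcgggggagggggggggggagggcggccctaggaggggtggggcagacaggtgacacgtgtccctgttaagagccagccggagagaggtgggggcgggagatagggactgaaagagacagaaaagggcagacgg
Gpx5: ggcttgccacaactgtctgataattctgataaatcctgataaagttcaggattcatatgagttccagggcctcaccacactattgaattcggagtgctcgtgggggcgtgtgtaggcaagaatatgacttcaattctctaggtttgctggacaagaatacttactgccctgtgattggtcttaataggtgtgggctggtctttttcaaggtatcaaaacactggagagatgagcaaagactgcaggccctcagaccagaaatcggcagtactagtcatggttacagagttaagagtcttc
Aqp9: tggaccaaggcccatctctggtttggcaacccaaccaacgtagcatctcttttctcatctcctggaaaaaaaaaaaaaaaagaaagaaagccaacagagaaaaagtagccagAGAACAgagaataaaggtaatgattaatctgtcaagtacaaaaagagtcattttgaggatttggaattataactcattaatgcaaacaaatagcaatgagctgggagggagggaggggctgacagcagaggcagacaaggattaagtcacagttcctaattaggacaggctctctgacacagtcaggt
Lypd8 held 2 matches, at positions -218 and -161 from the start, and Aqp9 held 1, at -138. The windows of Lin7a, Slc38a5 and Gpx5 held 0. Of all 32851 windows of that length in the table, 6233 (19%) held at least 1 match. A match is a run of letters and says nothing of binding.

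Most set C nuclei held 3 or more of the 5 genes. A median nucleus held 40 set C UMIs (middle 50% of nuclei 25 to 55, highest 174), against 7 of set A, 0 of set B and 9 of set D. All 5 genes were found in 222 nuclei (33.6%), 4 in 264, 3 in 122, 2 in 23 and 1 in 30. Slc38a5 was found in 99.4% of set C nuclei, Spink5 in 93.3%, Lypd8 in 93.2%, Lin7a in 58.9% and Ido2 in 49.8%, without thinning. The next set by UMIs was D in 325 nuclei, A in 297 and B in 8, and 249 nuclei lay within 2-fold of the next set. The threshold cut through a continuous range: 9 nuclei entered at a sum of 5 (median 3769 UMIs, Gpx5 at 3747 CPM) and 9 that met the rest of the rule stayed out at a sum of 4 (median 5114 UMIs, Gpx5 at 4181 CPM). A further 1694 epithelial nuclei held at least 5 set C UMIs but no more than those of another set.

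**Figure D2:**
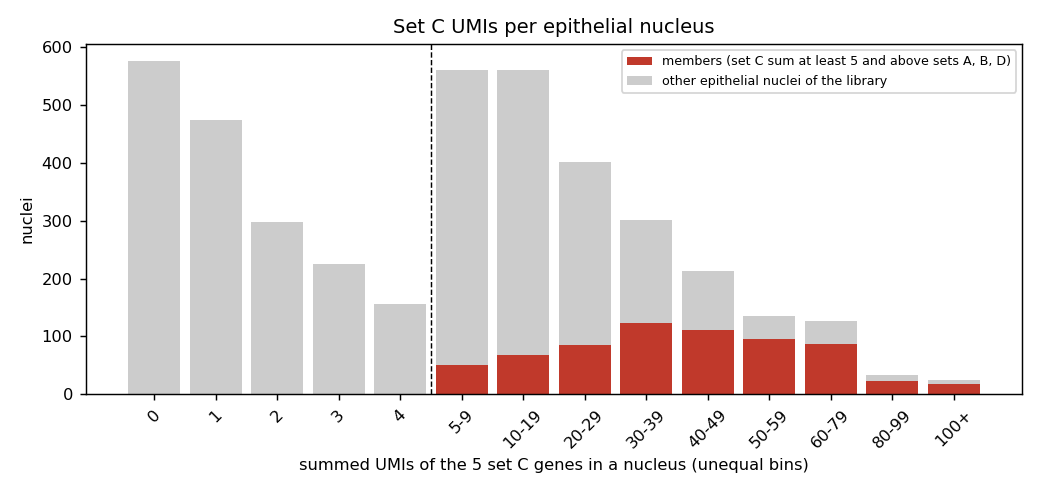
Number of epithelial nuclei of the BAT surgery library (vertical axis) by summed UMIs of the 5 set C genes (horizontal axis, unequal bins); red bars are the 661 set C nuclei, grey bars the other epithelial nuclei, and the dashed line is the minimum of 5. Set C nuclei are the larger share of a bin from 40 UMIs up, and 51 of them lie in the lowest bin of 5 to 9.

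Set C nuclei carried genes of epididymal principal cells, chiefly Gpx5 and Adam7. All 13 listed principal-cell genes were found, but all were found in macrophage-like nuclei as well. They summed to 18816 CPM in set C and 4827 in macrophage-like nuclei. In sets A, B and D the sums were 13701, 23357 and 24424. Gpx5 was at 9550 CPM in set C, 3596 in set A, 4262 in set B, 7599 in set D and 2259 in macrophage-like nuclei, and was 1.26-fold above set D (1.24 to 1.27). Adam7, a membrane protein that is passed to sperm, was at 6872 CPM, between set A (4817) and set D (9521). Genes of other male glands (the seminal vesicle genes Svs1, Svs2, Svs4 and Svs5, Pbsn and Pate4) summed to 5 UMIs, with 5 of the 6 at 0. Sperm genes (Prm1, Prm2, Tnp1, Tnp2) were at 11.8 CPM in set C and 10.3 in macrophage-like nuclei, with 1 of the 4 at 0 in set C. Clear or narrow cell genes were at 138 CPM, against 80 to 160 CPM elsewhere, and ciliated cell genes at 109 CPM, against 36.5 to 112 CPM. The summed list, Gpx5 and Adam7 stood above macrophage-like nuclei and bore out the label of epididymal epithelium. Lcn8 and Cst8, also on the list, were below macrophage-like nuclei and gave no such support.

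By a filter on some of the marker lists, a minority of set C nuclei also held genes of other cell types. At least 3 UMIs of the muscle or pericyte, progenitor, macrophage, endothelial or basal keratin list were found in 146 nuclei (22.1%), against 17.5% of set A, 16.0% of set B and 19.7% of set D. The muscle or pericyte list was at 296 CPM in set C, 101 in set A, 48.2 in set B, 64.7 in set D and 130 in macrophage-like nuclei. Basal keratins (Krt5, Krt14, Krt15) were at 38.2 CPM in set C and 3.43 to 9.53 in the other epithelial sets. The adipocyte list was at 613 CPM in set C, 619 to 773 in the other sets and 857 in macrophage-like nuclei, and the macrophage list was at 120 to 129 CPM in all 4 epithelial sets. The 146 nuclei had a median of 0.545% mitochondrial UMIs against 0.0248% in the other 515. The Scrublet method marked 32 of the 146 as doublets (21.9%) and 17 of the 515 (3.30%). Over all of set C it marked 49 (7.41%), fewer than in sets A (17.5%), B (10.2%) and D (10.7%). Lypd8 was at 1230 CPM in the 146 nuclei and 1473 in the 515, Spink5 at 1163 and 1840, and Lin7a at 147 and 412. Results that rest on the 146 nuclei are given below with and without them; leaving such nuclei out of all 4 sets was a setting added after the data had been seen.

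Across all genes set C was nearest to set A. Over 15530 genes outside the rule, Pearson r of log2(CPM + 1) was 0.946 with set A, 0.934 with set D and 0.881 with set B; these values describe sums from 1 library and share its depth. A gene was called between sets where the pair held 50 UMIs or more together, CPM differed 2-fold or more, and 1 lay outside the interval. No test was run, and any gene of nuclei chosen by their counts is a description. Against set A, 7.64% of 14278 genes were higher in set C and 5.5% lower. Against set B, 19.7% of 12989 genes were higher and 6.39% lower, 2555 against 830 genes, and with median-of-ratios scaling 1820 against 1141. Against set D, 8.95% of 12565 genes were higher and 4.46% lower. The median log2 ratio of all genes was 0.06 against set A, 0.27 against set B and 0.13 against set D, a shift that median-of-ratios scaling took to -0.02, -0.02 and 0.00. Against each of the 3 sets at once, 382 of 12358 genes (3.09%) were higher and 79 (0.639%) lower. Without the nuclei holding genes of other cell types the counts were 177 of 10904 higher (1.62%), 142 of them among the 382, and 103 lower (0.945%), 61 of them among the 79.

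The genes that stood highest in set C over the highest of the other sets were split in 2 by the filter on genes of other cell types. Of the 20 leading genes, 10 were no longer called against each set without the nuclei with genes of other cell types, where each of the 10 held 2 to 27 UMIs. These were the contractile genes Acta2, Myl9, Tpm2, Tagln, Myh11 and Cnn1, the pericyte gene Rgs5, the matrix gene Postn, the Wnt antagonist Sfrp1 and the mitotic gene Cenpf. Acta2, Tagln, Myh11 and Rgs5 are on the muscle or pericyte list that the filter used. Their fall in the 515 nuclei was fixed by the filter and is no separate result. Acta2, smooth muscle actin, was at 94.1 CPM in all set C nuclei and 1.96 in the 515. Myh11, smooth muscle myosin, was at 61.9 and 1.23 CPM, below set A (2.71) in the second case. In the 515 nuclei the ratio to the highest other set was below 1 for 4 of the 10 (Acta2, Myh11, Cnn1 and Sfrp1), each with an interval that included 1. It was still 2 or more for 5 of the 10, which were Postn, Tpm2, Cenpf, Rgs5 and Tagln; they lost the call because of their few UMIs or the interval.

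Of the 10 leading genes that stayed called, 8 stood farther above the highest other set in the 515 nuclei. The exceptions were 6430628N08Rik, at 5.98-fold with all nuclei and 5.93-fold in the 515, and the matrix gene Mgp, which went from 4.45-fold (94.3 CPM) to 2.33-fold (10.3 CPM). Sez6l, a membrane protein best known from neurons, was at 24.0 CPM in set C, 3.37 in set A, 1.33 in set B and 1.65 in set D, and at 3.20 in macrophage-like nuclei. It was 7.12-fold above set A (5.12 to 10.04), and 10.1-fold (6.62 to 15.8) in the 515 nuclei. Rnf207, a RING finger protein, was at 23.9 CPM against 3.64, 0.775 and 1.84, 6.55-fold above set A (4.75 to 9.15). Myrip, which links Rab27 on secretory granules to myosin motors, was at 47.5 CPM against 8.93, 2.21 and 10.1, 4.70-fold above set D (3.50 to 6.41). Cpe, carboxypeptidase E of the regulated secretory pathway, was at 75.9 CPM against 16.6, 7.86 and 10.3. Vtcn1, an inhibitory B7-family ligand of T cells, was at 14.2 CPM against 2.45, 0.886 and 2.94. Samd12, Cntn3 and Myom1 were among the leading genes in the 515 nuclei but not with all nuclei. Samd12 was at 243 CPM against 55.8, 12.1 and 34.7 with all nuclei. It was found in 57.9% of set C nuclei and 3.95% of macrophage-like nuclei (32.8% and 2.93% thinned). Cntn3, a cell adhesion molecule of the contactin family, was at 88.1 CPM against 22.2, 5.43 and 7.53. Myom1, a protein of the sarcomere's M-band, was at 143 CPM against 33.9, 12.3 and 39.3, and at 161 CPM in the 515 nuclei, where the 6 contractile genes above were at 0.491 to 2.70 CPM. Of those 6, Acta2, Tagln and Myh11 are on a list that the filter used. Set B was lowest for 19 of the 20 genes that led in the 515.

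A pair of neighbours on chromosome 7 were among the leading genes. Cfap161, a cilium and flagellum protein, lies at chr7:83774101-83794880 on the minus strand (GRCm38, GENCODE M21) and was at 11.5 CPM against 2.18 in set A, 0.997 in set B and 2.57 in set D. The non-coding gene Gm44993 lies at chr7:83800422-83834599 on the same strand and was at 43.2 CPM against 9.53, 2.21 and 4.59. The ranked list in the 515 nuclei also held 6430628N08Rik, Snhg11, Vill, Rassf5, Arhgap10, Shf, Pmel, Kcnt1, Insyn2b and Pate7, and all 20 of its genes were past 2-fold against each set with all members as well. Arhgap10 was at 86.7 CPM in set C but 276 CPM in macrophage-like nuclei, and the part of free RNA or other cells in it was not tested. Adgrg7 led with all 661 nuclei at 50 UMIs, the minimum, and 9.10 CPM.

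**Figure D3:**
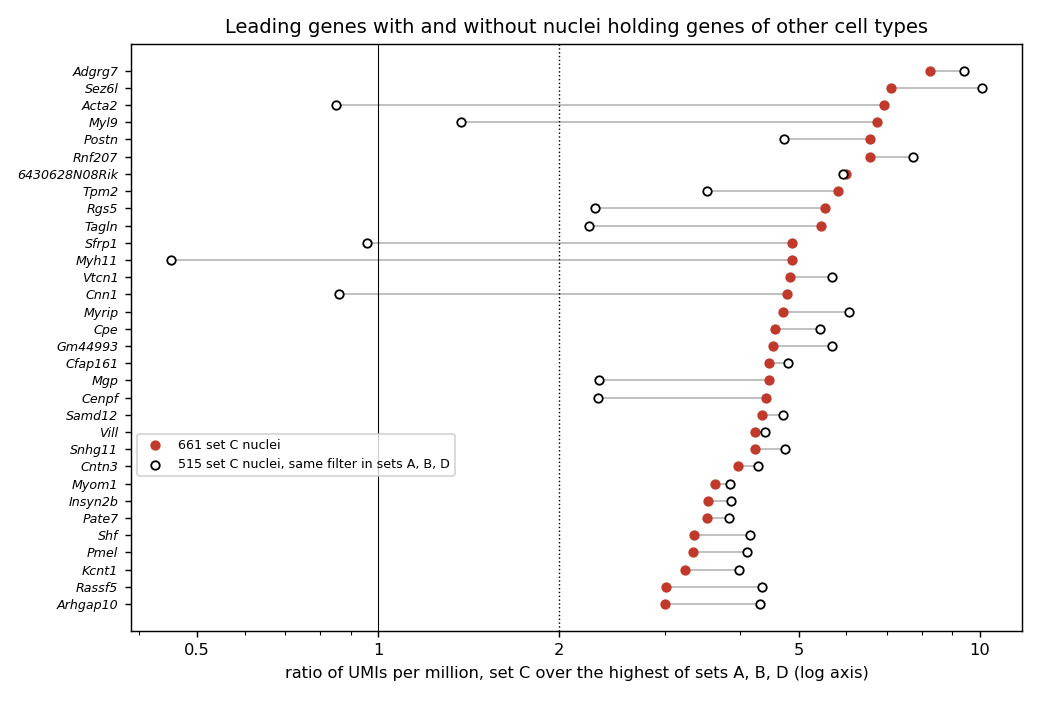
Ratio of CPM in set C over the highest of sets A, B and D (log axis) for the 32 genes that led with all 661 nuclei (red) or with the 515 nuclei left after nuclei holding genes of other cell types were removed from all sets (white). The dotted line is 2-fold. Smooth muscle genes, of which Acta2, Tagln and Myh11 are on a list that the filter used, move to the left, Myh11 the farthest. Sez6l, Rnf207 and Myrip move to the right.

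The genes that stood lowest in set C were mostly high in set B. Of the 10 with the lowest ratio to the lowest other set, 9 were highest in set B, and 8 stayed called against each set in the 515 nuclei. Aqp9, the main water and glycerol channel of principal cells, was the clearest case, with 35 UMIs in all of set C. It was at 6.37 CPM in set C, 133 in set A, 103 in set B and 82.9 in set D, and at 19.4 in macrophage-like nuclei. Aqp9 was 13-fold below set D (9.21 to 18.9), and was found in 1.23% of thinned set C nuclei against 2.34% of macrophage-like nuclei and 14.7% to 21.3% in the other sets. The set C share was at or below the free RNA floor and is read as background. Gm32511, an antisense gene at chr9:71163794-71208124 that overlaps Aqp9 (chr9:71110659-71168682), was at 0.728 CPM against 27.5, 43.5 and 29.03; whether counting used strand is not given in the sources used here, so the pair cannot be told apart. The non-coding gene Gm32017, which lies within Lipc on the other strand, was at 21.3 CPM against 139, 2721 and 411. Lipc is a set B gene of the rule, and without strand the reads of that pair cannot be told apart either. The level of Gm32017 is thus not independent of how the nuclei were chosen.

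Others of the 10 were Rpl3l, a paralogue of a ribosomal protein known from striated muscle, at 7.83 CPM against 68.8, 735 and 222, Gm4846 at 30.6 CPM against 216, 3824 and 642, and Gm13575, 9230102K24Rik, Gm29040, Gm3764 and Pate10. Crisp4, a secreted CRISP protein that binds to sperm, was at 104 CPM in set C, 966 in set A, 1272 in set B and 461 in set D, with 67.0 in macrophage-like nuclei. Its level in set C was 4.44-fold below set D (4.05 to 4.87). Defb41, on the same chromosome (Crisp4 at chr1:18115191-18145902, Defb41 at chr1:18250980-18265138), differed by under 2-fold from each set, at 784 CPM against 468, 588 and 957.

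Called against each set at once, secreted families differed gene by gene, while some shifted as a block against set B. Lists were chosen with earlier results of these data known, rule genes were left out, and a list is set beside the median log2 ratio of all genes, 0.10 against sets A, B and D pooled (0.05 in the 515 nuclei). For calls against each set at once, the shares over all genes were 3.09% higher and 0.639% lower. In the 515 nuclei they were 1.62% and 0.945%. The counts of every list below stand beside these shares. Of 20 measured genes of the Ly6 and uPAR family, 4 were higher than in each set (Pate6, Pate7, Ly6a, Ly6e) and 1 lower (Pate10), with a median of 0.48, or -0.12 in the 515 nuclei, where Pate6 and Pate7 stayed higher. Pate6 was at 697 CPM in set C against 285, 42.2 and 115, with 112 in macrophage-like nuclei. Pate7 was at 181 CPM against 51.5, 8.86 and 17.8. The Pate genes lie together on chromosome 9, and their highest sets differed. Pate13 was at 1856 CPM in set C and 3938 in set A, against 154 in set B and 398 in set D. Pate5 was at 55.5 CPM in both set C and set A, against 572 in set B and 477 in set D. Pate10 was at 0.546 CPM in set C and 57.9 in set B. These are small related genes, and how reads shared between copies were counted is not given in the sources used here.

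Of 23 measured beta-defensins outside the rule, 2 were higher than in each set (Defb2, Defb45) and 1 lower (Defb30), with a median of -0.38. Neither of the 2 stayed past 2-fold against each set in the 515 nuclei. Defb15 was at 507 CPM in set C, 656 in set A, 49.1 in set B and 47.2 in set D. Defb20 was at 738 CPM in set C, 217 in set A, 771 in set B and 1549 in set D. Defb30 was at 61.7 CPM, near the 59.9 of macrophage-like nuclei, against 588 in set A.

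The 7 measured lipocalins had a median of -0.03 and none was past 2-fold against each set, while in the 515 nuclei 2 were lower than in each. Lcn5, an epididymal carrier of retinoic acid, was at 1031 CPM in set C against 4011 in set A, 203 in set B and 222 in set D, with 450 in macrophage-like nuclei. Lcn8 was at 332 CPM against 456, 5512 and 2342, below the 489 of macrophage-like nuclei, and Lcn9 at 153 CPM against 263, 3462 and 1743. Lcn6 was at 200 CPM against 47.5, 88.1 and 194. Lcn2 was at 514 CPM against 174, 509 and 532. The 7 measured cystatins, protease inhibitors of the cysteine type, had a median of -1.35, or -2.69 in the 515 nuclei. Set by set the cystatin median was 0.70 against set A, -2.60 against set B and -1.11 against set D. Against set B, 5 of 7 cystatins were lower and 1 higher, beside 6.39% and 19.7% of all genes. Cst11 was at 238 CPM against 104, 809 and 823, and was 2.28-fold above set A (2.117 to 2.455). Cst8 was at 71.4 CPM against 53.5, 431 and 186, below the 85.3 of macrophage-like nuclei. In the 515 nuclei it was at 28.2 CPM, below set A under the same filter (36.2). Of 25 measured Kazal, Kunitz and WAP inhibitors, 1 was higher than in each set (Wfdc16, 8.92 CPM against 1.99, 0.664 and 2.21) and 0 were lower, with a median of 0.32, or -0.03 in the 515 nuclei, where Wfdc16 was 3.55-fold above the highest other set but had too few UMIs for a call. Against set B alone, 13 of 19 measured inhibitors were higher and 0 lower, with a median of 1.86. Over all genes 19.7% were higher and 6.39% lower than in set B. Against set A, 4 of 24 were higher and 7 lower, and against set D, 9 of 20 higher and 2 lower. Spink8 was at 253 CPM against 539, 44.2 and 68.9, and Wfdc8 at 929 CPM against 2311, 172 and 282. The 6 measured RNases outside the rule had a median of 0.00, or -1.19 in the 515 nuclei, with 0 past 2-fold against each set in either case. Rnase13 was at 35.7 CPM against 133, 6.20 and 7.72. Both measured CRISP genes were lower than in sets A and B, beside 5.5% and 6.39% of all genes, with a median of -3.18.

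Glutathione and peroxidase genes stood above the median of all genes. Of 30 measured, 4 were higher than in each set (Gpx6, Gsta3, Gstm5, Gstt1) and 0 lower, beside 3.09% and 0.639% of all genes, with a median of 0.72. In the 515 nuclei the median was 0.40 and 1 of them, Gsta3, was higher than in each set, beside 1.62% of all genes. Gsta3, a glutathione transferase, was at 61.4 CPM against 25.3, 19.6 and 26.6. Gpx6, a neighbour of Gpx5 in the same peroxidase family, was at 10.2 CPM against 2.25, 2.88 and 4.96. Ggt1, which breaks down glutathione outside the cell, was at 79.4 CPM in set C and 98.2 in set A, against 8.97 in set B and 20.8 in set D.

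**Figure D4:**
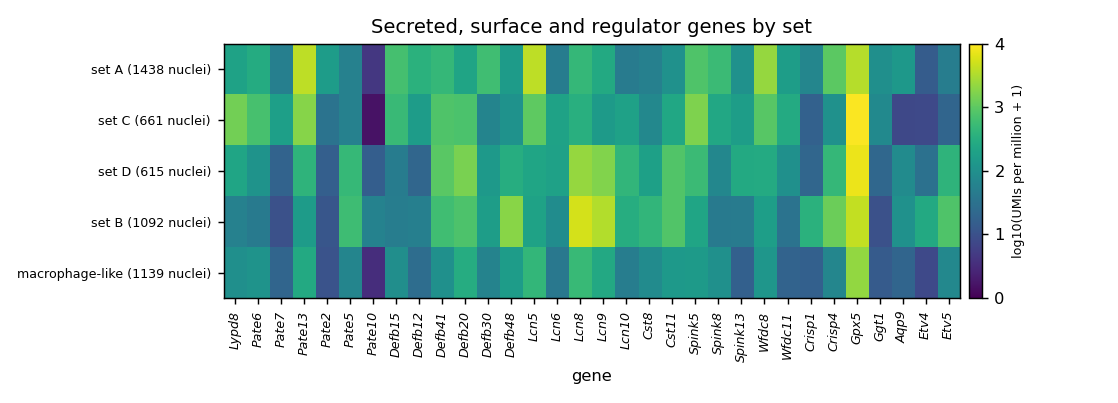
Level of 32 secreted, surface and regulator genes as log10(CPM + 1) in 5 sets of nuclei, ordered with set C between sets A and D. Set C is brightest in Lypd8, Pate6, Pate7, Spink5 and Gpx5, is darkest in Aqp9 and Pate10, and is darker than sets B and D in Lcn8, Lcn9 and Etv5.

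Genes of the initial segment, the first stretch of the duct, were low in set C beside sets B and D, and less so beside set A. In that segment the receptor tyrosine kinase Ros1 answers a signal from the testis and keeps the transcription factors Etv1, Etv4 and Etv5 expressed. Of 11 measured genes of this list, 0 were higher and 2 (Etv4, Etv5) lower than in each set. The median against the pooled sets was -1.94, or -3.20 in the 515 nuclei, where Etv5 stayed lower against each set. With all nuclei the median was -0.33 against set A, -3.28 against set B and -2.17 against set D. Lower were 2 of 9 measured genes against set A, 8 of 10 against set B and 6 of 9 against set D. Over all genes the shares lower were 5.5%, 6.39% and 4.46% in the same order. Etv5 was at 19.3 CPM in set C, 48.6 in set A, 788 in set B and 403 in set D, with 73.8 in macrophage-like nuclei. Etv4 was at 6.55 CPM against 13.8, 271 and 29.6, with 6.63 in macrophage-like nuclei. Both were at or below the free RNA floor in set C, and Etv5 was below it in set A too. Ros1 itself was at 386 CPM against 729, 1325 and 759, 67.7 in macrophage-like nuclei. Set B was highest for all 3 genes.

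The tryptophan pathway of Ido2 showed single genes. Of 5 measured members outside the rule, 0 were past 2-fold against each set, with a median of 0.26. Ido1, which starts tryptophan breakdown and lies next to Ido2 (Ido1 at chr8:24584136-24597009, Ido2 at chr8:24531892-24576333, both on the minus strand), was at 296 CPM in set C, 803 in set A, 86.9 in set B and 267 in set D. Kyat3, which turns kynurenine into kynurenic acid, was at 45.3 CPM against 24.9, 6.42 and 22.1.

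Of the listed genes of apical polarity outside the rule, 0 were called against set A or set D. Against set B 1 was higher, where 19.7% of all genes were higher. Of 17 measured genes outside the rule, 0 were past 2-fold against each set in either direction, with a median of -0.01. Pard3 was at 371 CPM against 380, 359 and 373, and Patj at 350 CPM against 394, 457 and 381. Pard3b, a paralogue of Pard3, was at 411 CPM against 328 in set A, 64.6 in set B and 284 in set D, and was called higher than in set B. Of 18 measured tight junction genes, 0 were past 2-fold against each set, with a median of 0.29. Cgn, cingulin of the tight junction plaque, was at 52.8 CPM against 17.9, 18.7 and 36.4. Of 28 measured amino acid transporters outside the rule, 1 (Slc7a9, 12.2 CPM against 6.02, 2.33 and 2.39) was higher than in each set and 0 lower, with a median of -0.11, or -0.44 in the 515 nuclei, where 0 were called. Slc7a11, the cystine importer, was at 5.10 CPM against 219, 66.3 and 7.90. Of 12 measured genes of steroid hormone handling, 0 were past 2-fold against each set, with a median of 0.17. Esr2, oestrogen receptor beta, was at 99.97 CPM in set C, 18.9 in set A, 28.6 in set B and 85.6 in set D, and was 5.30-fold above set A (4.59 to 6.14). Fkbp5, a steroid-responsive chaperone, was at 1249 CPM against 894, 717 and 1190.

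Of 18 measured genes of water, ion and acid transport, 0 were higher and 1 (Aqp9) lower than in each set, with a median of 0.23. Cftr, the chloride channel, was at 53.7 CPM in set C and 663 in set B, near sets A (64.8) and D (54.0). Of 20 measured duct transcription factors outside the rule, 0 were past 2-fold against each set, with a median of 0.20. Pax2 was at 271 CPM against 648, 86.3 and 125, and Pax8 at 285 CPM against 527, 867 and 240. Lists that hold genes of immune and dividing cells had calls with all nuclei that were not made in the 515. Of 17 measured MHC and interferon genes, 2 (Cd74, H2-Ab1) were higher than in each set, with a median of 0.64, or 0.16 in the 515 nuclei, where 0 were higher. Cd74 was at 77.6 CPM in set C, 22.6 in the 515 nuclei and 515.2 in macrophage-like nuclei. Of 8 measured cell cycle genes, 2 (Cenpf, Top2a) were higher than in each set, and 0 in the 515 nuclei. There Cenpf was still 2.32-fold above the highest other set (1.25 to 4.36) on 27 UMIs, and Top2a was 1.23-fold above (0.731 to 2.06). The 14 measured ADAM genes outside the rule, 19 genes of complement and innate immunity and 12 of the immediate early and heat shock response had medians of 0.22, 0.52 and 0.43, and 0 of them were past 2-fold against each set. In the 515 nuclei the medians were 0.17, 0.34 and -0.12, with 0 of these genes called against each set. Of 24 measured lipid genes 1 (Fabp4) and of 5 measured AHR genes 1 (Cyp1b1) was higher, with 0 lower. Neither stayed called in the 515 nuclei. Cyp1b1 was at 8.38 CPM in all set C nuclei and 0.245 (1 UMI) in the 515, against 1.02 in set D, and Apoe, an apolipoprotein, was called there instead, at 243 CPM against 110, 60.1 and 78.6. Fabp4 was at 241 CPM in set C, 44.4 in the 515 nuclei and 476 in macrophage-like nuclei. The 3 measured posterior Hox genes had a median of -0.47 and the 1 measured kallikrein-like gene, Klkb1, was at 0.364 CPM.

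Set C lay between sets A and D for most genes that set A held above set D. Of 577 genes outside the rule at least 4-fold higher in set A than in set D, set C lay between for 482 (83.5%), above both for 47 and below both for 48. Of 297 genes at least 4-fold higher in set D than in set A, set C lay between for 166 (55.9%), above both for 12 and below both for 119. Its median position, from 0 at the low set to 1 at the high set on the log scale, was 0.45 for the first and 0.15 for the second. In the 515 nuclei the shares between were 80.8% and 54.2%.

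Set C nuclei were also split by their counts of set A and set D genes. Of the 515 nuclei, 235 held more set A than set D UMIs (A-leaning), 261 the reverse (D-leaning) and 19 the same number, and 61 and 54 of the first groups lay within 2-fold. Both sides were alike in depth (median 7859 and 7567 UMIs), in set C UMIs (40 and 43) and in doublet marks (2.98% and 3.45%). Since the sides were cut on set A and set D genes, genes that go with either set had to differ between them, and what follows is description. Outside the rule genes, 90 of 8889 genes (1.01%) were at least 2-fold higher on the A-leaning side and 117 (1.32%) on the D-leaning side. Of the 90, 83 (92.2%) were also higher in set A than in set D, and of the 117, 99 (84.6%) were higher in set D than in set A. Among all 8889 genes, 58.5% were higher in set A and 41.5% in set D. The split fixes this order in part, so it supports nothing. Without the marked doublets the counts were 90 and 100, with 77 and 87 shared.

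The genes higher on the A-leaning side included several that encode secreted or surface proteins. Pate13 was at 3367 CPM in A-leaning and 994 in D-leaning nuclei (3.39-fold, 3.22 to 3.56), with 4201 in set A and 408 in set D. Defb15 was at 626 and 169 CPM (3.70-fold, 3.28 to 4.19), Spink11 at 439 and 119 CPM, and Crisp4 at 155 and 47.5 CPM. Nxpe2 was at 86.7 and 13.7 CPM (6.33-fold, 4.22 to 9.81). Enpp1, an enzyme that makes pyrophosphate outside the cell, was at 301 and 76.9 CPM. On the D-leaning side, Lcn10 was at 317 CPM against 76.8 (4.13-fold, 3.44 to 4.97), with 476 in set D and 33.5 in set A. Ak9, an adenylate kinase, was at 211 CPM against 46.0, and Abcc4, an exporter of cyclic nucleotides and other organic anions, at 60.7 CPM against 12.5. The transcription factor gene Hnf4g was at 58.8 CPM against 17.2, with 28.9 in set D, 2.88 in set A and 0 in macrophage-like nuclei. Gna14, a G protein alpha subunit, was at 77.9 CPM against 25.6, with 43.5 in set D. Hnf4g and Gna14 were higher on the D-leaning side than in set A and in set D. Both genes were picked for being high on that side, so this order is a description only. The D-leaning list also held Pparg, Cd36 and Ptprc at 24.5 to 31.3 CPM, genes at 274 to 947 CPM in macrophage-like nuclei, and the part of free RNA or other cells in these was not tested.

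The set C genes themselves differed less between the sides. Lin7a was at 548 CPM in D-leaning and 279 in A-leaning nuclei, Ido2 at 189 and 131, Lypd8 at 1676 and 1314, and Slc38a5 at 1627 and 1573. Spink5 was the other way, at 1735 in D-leaning and 1991 in A-leaning nuclei. Gpx5 was at 9371 and 7902 CPM, Lcn5 at 590 and 1161, and Pate6 at 588 and 590.

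**Figure D5:**
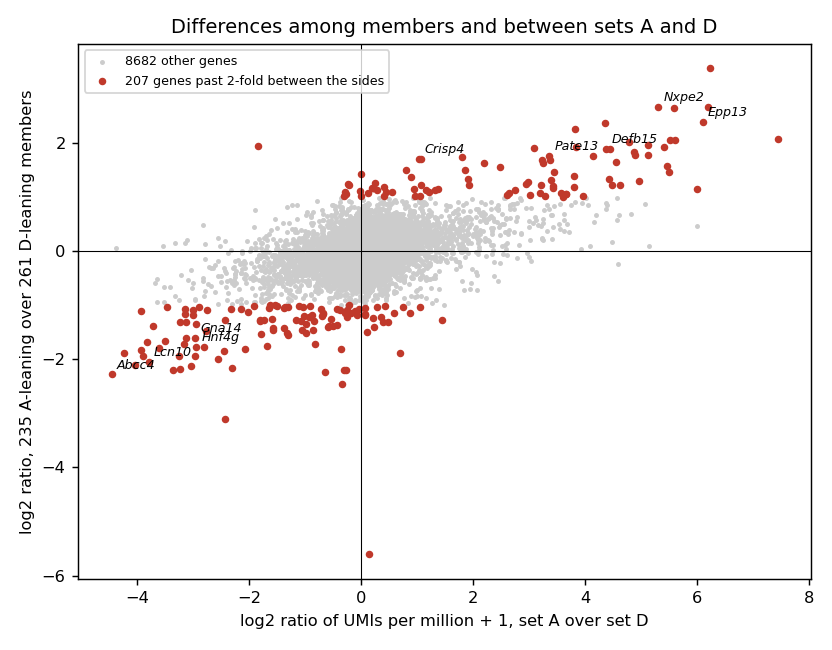
Each point is 1 of 8889 genes outside the rule; the horizontal axis is the log2 ratio of CPM + 1 between set A and set D, the vertical axis the log2 ratio between 235 A-leaning and 261 D-leaning set C nuclei. The 207 red genes are past 2-fold between the sides, and most lie in the upper right and lower left.

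Ranked by variance over mean (Fano factor) at 2000 UMIs, the genes that varied most between set C nuclei were not genes of the rule. Among 4357 genes with a mean of at least 0.1 UMI, with a median Fano factor of 1.09, the 10 highest were Gm42418 (99.7), Cmss1 (20.9), Malat1 (19.2), Sntg1 (13.3), Gpx5 (12.6), Ghr (12.4), C7 (11.1), Fabp4 (9.16), mt-Co1 (7.67) and Apoe (7.66). Gm42418, a locus that overlaps ribosomal RNA sequence, had a Fano factor of 20.3 in the 515 nuclei. Ghr, C7 and Fabp4, known from adipocytes, fibroblasts and macrophages, were not among the 10 highest there. Sntg1 was found in 13.4% of thinned nuclei at a mean of 0.971 UMI, so its UMIs came from few nuclei, and its Fano factor was 15.6 in the 515. Gpx5 was found in 97.8% of nuclei at a mean of 19.4 UMIs, and had a Fano factor of 10.8 in the 515 nuclei.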

How the data were processed

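The analysis started from the UMI counts that the authors deposited, a table of 32285 genes for each of 4 libraries. Build mm10 and Seurat 4.4.0 and 4 are listed in the submitters' processing notes; the aligner or counter was not given in the sources used here. Only counts were analysed: barcodes were filtered and assigned by the rule given in the report, UMIs were summed per set and scaled to 1000000 (CPM), and ratios carry exact conditional binomial 95% intervals. A set at 0 was put at 3 UMIs. Doublets were scored by Scrublet at an expected rate of 6% through scanpy 1.11.5 and left in. Gene positions came from GENCODE M21 (GRCm38), which matched 32158 gene identifiers, and promoters from RefSeq (GRCm38.p6).

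The set, its genes and the gene lists were chosen with earlier results of these data known. Named genes were the rule genes, the 20 genes highest in set C over the highest other set (at least 50 UMIs in set C), the 10 lowest below the lowest other set (at least 50 UMIs in each of the others), the genes of each list past 2-fold against each set or else up to 4 with the most UMIs, and the 10 with the highest Fano factor. Genes named beyond this rule, such as single members of a family, were picked after their values were seen. A few listed genes are not reported here and were left out of their lists. Each group had 1 library, so no model or p-value was computed. The size rule was tested on simulated counts. Alternatives were the minimum sum, dominance, epithelial genes, doublet removal, scaling, depth, minimum count and fold, plus the removal of nuclei with genes of other cell types, added after seeing the data. Python 3.11.15, numpy 2.4.6, scipy 1.17.1 and pandas 2.3.3 were used.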

Additional observations from a re-analysis of the deposited data

How the results depend on the processing

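No paired analysis was possible because each group had 1 library. A set C sum at least 2 times each other sum left 412 nuclei, and at least 3 of 5 epithelial genes left 342, against 661; minimum sums of 3 and 10 gave 689 and 610, and doublet removal 612. Thinned to 2000 UMIs, 543 genes were higher and 505 lower than in set A (1091 and 786 with all UMIs), 1305 higher than in set B (2555), 543 higher and 302 lower than in set D (1124 and 561), and 141 higher and 29 lower than in each set (382 and 79). Fewer UMIs leave fewer genes above the minimum. With no minimum of UMIs, 1796 genes were higher than in set A, 4236 than in set B, 1931 than in set D and 708 than in each, while 892 were lower than in set D and 120 than in each. At 1.5-fold, 2331 were higher and 1302 lower than in set A, 4124 and 1264 than in set B, 2194 and 983 than in set D, and 917 and 156 than in each. Without doublets 37 were lower than in each set; the cause was not tested. Without nuclei holding genes of other cell types 177 were higher than in each set. That filter turned the log2 ratio to the highest other set to -0.23 in Acta2, -0.06 in Sfrp1, -1.14 in Myh11 and -0.22 in Cnn1, with 2 to 8 UMIs and intervals that include 1, and no other alternative turned the sign of a named gene. Acta2 and Myh11 are on a list that the filter used, so their fall follows from it. Of the 10 genes with the highest Fano factor, 7 stayed among the 10 at 1000 UMIs and 7 under that filter. Depth limits the calls to genes with at least 50 UMIs, and set C had a median of 7817 UMIs per nucleus.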
